A study of Mus musculus with 12 samples.

Results

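miR-103 and miR-107 are 2 of the 1087 annotated miRNA names whose hairpins were searched here, and they come from 3 of 1174 hairpins. They were followed in small RNA from mouse hippocampus. Members were the sequence tags that matched a hairpin of either miRNA exactly and over the full tag. Tags that fit both were kept as a class of their own. On the 3′ arm, the side of the hairpin that gives the main product, 59 distinct tags held 795584 counts, 2.65% of the 30022027 miRNA counts of the study.

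The hippocampi came from individual male C57BL/6NCrl mice. The groups were untreated mice (NT, 2 libraries) and mice given electroconvulsive shock (ECS), a current that makes neurons fire together, and killed after 0.5 h, 1 h, 3 h, 6 h or 24 h, with 2 libraries at each time. The labels give no allele, drug or second treatment for any group. Libraries ending in -1 form time course 1 and those ending in -2 time course 2, and each time point has 1 library from each.

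miRNAs are short RNAs cut from a hairpin by Drosha and Dicer and loaded into Argonaute, where bases 2 to 8, the seed, do most of the pairing with target mRNAs. miR-103 and miR-107 are vertebrate paralogs that lie inside introns of genes for pantothenate kinases, the enzymes that start coenzyme A synthesis. They are abundant in brain and are known for targets in lipid and insulin signalling and for repressing Dicer itself.

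In the GRCm38 annotation Mir103-1 lies at chr11:35782396-35782481 on the + strand, in intron 5 of Pank3 (transcript Pank3-201). Mir103-2 lies at chr2:131288052-131288137 on the + strand, in intron 5 of Pank2 (transcript Pank2-204). Mir107 lies at chr19:34820687-34820773 on the − strand, in intron 5 of Pank1 (transcript Pank1-201). Each hairpin is on the strand of its host gene. Both miR-103 hairpins give the same 3′ product. The mature 3′ sequences from RefSeq are shown because every result turns on how close they are, first with the seed in capitals.

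mmu-miR-103-3p: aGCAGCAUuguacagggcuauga
mmu-miR-107-3p: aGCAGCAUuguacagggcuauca

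The seed is the same in both. The sequences differ at 1 base, G22C with positions counted from 1 at the 5′ end and miR-103 as the reference, marked here in capitals.

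mmu-miR-103-3p: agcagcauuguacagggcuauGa
mmu-miR-107-3p: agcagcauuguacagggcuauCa

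A tag that begins at the mature 5′ end and stops at base 21 or before therefore fits both members. Only tags that reach base 22 can be assigned. Because the differing base lies 1 position from the mature 3′ end, the split between miR-103 and miR-107 rests on the last bases of the molecule.

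The most abundant tags are shown as DNA, with base 22 in capitals where a tag reaches it.

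shared, 21 nt: agcagcattgtacagggctat
shared, 20 nt: agcagcattgtacagggcta
miR-103, 23 nt: agcagcattgtacagggctatGa
miR-103, 22 nt: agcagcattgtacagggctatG
miR-107, 23 nt: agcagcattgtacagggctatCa
miR-107, 22 nt: agcagcattgtacagggctatC

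The shared 21 nt tag was the largest of them, with 344696 counts or 43.3% of the 3′ arm. The shared 20 nt tag held 156630 counts, 19.7%. The full miR-103 sequence of 23 nt had 155882 counts (19.6%), and the full miR-107 sequence had 36898 counts (4.64%). The 22 nt tags held 50241 counts for miR-103 and 32595 for miR-107. These 6 tags made up 97.7% of the counts of the arm, so the product ended mainly at 4 neighbouring bases.

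In total 507145 counts (63.7%) fitted both members, 218544 (27.5%) only miR-103 and 69895 (8.79%) only miR-107. Of the 288439 assignable counts, 75.8% were miR-103. Few abundant miRNAs lose so much to a relative. Among the 71 arms that averaged at least 0.1% of miRNA counts, the pair ranked second by the share of counts that fit more than 1 miRNA name. For arms outside the pair this share was taken after each tag that fits several names had been divided equally among them. That division lowers their shares, whereas the pair's 63.7% is of undivided counts, so the rank is approximate. As divided, miR-378c 5p had 99.5%, miR-378a 3p 36.4% and let-7a 5p 3.52%, and 67 of the 71 arms were under 1%.

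Depth set how well each value was known. Accepted reads, all reads with an insert and adapter, ranged from 1897490 to 7657222 a library, and miRNA counts from 439336 to 4282006. The 3′ arm of the pair had 5830 counts in NT-1 and 150512 in 3h-2. The library with fewest assignable counts was 6h-1, with 73 of miR-103 and 21 of miR-107. Intervals below are 95% Wilson intervals and cover the counting error of reads only, not the spread between mice. Reads carried no molecular identifiers, so copies made by PCR could not be told apart and were counted. All 5 neuronal marker miRNAs had counts in every library and summed to between 6.09% and 31.2% of miRNA counts, as in brain tissue. Libraries of different time courses were not copies of each other, with a chi-square per degree of freedom of at least 2053 at each time point. 0.5h-1 and 24h-1 were far closer to each other, at 39.3, than any pair of libraries of the same time. Those same-time pairs all cross the time courses, and the chi-square is given for no other pair within a time course. By Pearson's r of log2 levels 0.5h-1 and 24h-1 stood at 0.992, and 1h-2 and 3h-2 at 0.983.

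The pair was one of the main miRNAs of these libraries. Its 3′ arm averaged 2.24% of miRNA counts over the 12 libraries and ranked 9 of 1064 arms. In time course 1 its level was 0.546% of miRNA counts in NT-1 (0.532 to 0.560), 2.78% in 0.5h-1, 1.59% in 1h-1, 1.63% in 3h-1, 1.59% in 6h-1 and 2.69% in 24h-1. In time course 2 it was 2.53% in NT-2, 3.65% in 0.5h-2, 2.35% in 1h-2, 3.63% in 3h-2, 0.830% in 6h-2 and 3.02% in 24h-2. The untreated library was the lowest of time course 1, and the 6 h library was the lowest of time course 2.

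**Figure D1:**
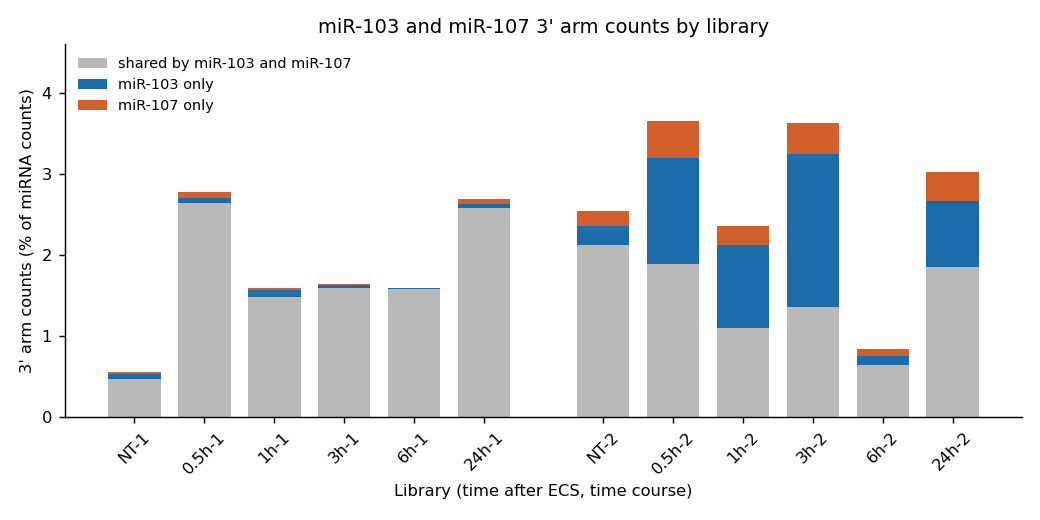
Stacked bars give the 3′ arm counts of the pair in each of the 12 libraries as percent of miRNA counts, split into counts shared by both members (grey), only miR-103 (blue) and only miR-107 (orange). Grey fills 85.5% to 98.7% of each bar in time course 1 and 37.1% to 83.7% in time course 2.

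From high to low, the mean level (± SD, n = 2) was 3.22% ± 0.615 for 0.5 h, 2.85% ± 0.231 for 24 h, 2.63% ± 1.41 for 3 h, 1.97% ± 0.541 for 1 h, 1.54% ± 1.40 without treatment and 1.21% ± 0.537 for 6 h. No neighbours in this order were separated, since their ranges overlapped in each case. The study asked how miRNA levels change after neuronal activity. It held that its sequencing was unlikely to measure this accurately, given a batch effect between the time courses, and turned to PCR assays. Scaled to other small noncoding RNAs, those assays showed lower levels of most miRNAs late after ECS. Levels and fold changes here are relative to the other miRNAs, so a fall common to most of them would not show. For the level of the pair, the mean of the 5 treated libraries minus the untreated one was 1.51 percentage points in time course 1 and 0.168 in time course 2. Their mean, 0.839 points, gave p = 0.2778 (exact permutation test over 36 placements of the untreated label within time courses, two-sided, smallest possible p 0.0278).

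The same question was put to each class of counts in a fit over all arms, in which 0 of 470 arms (0%) passed an adjusted p of 0.05 at each of the 5 times (edgeR quasi-likelihood test with Benjamini-Hochberg adjustment). In order of time, 12, 2, 9, 8 and 7 arms had a p under 0.05 before adjustment, and DESeq2 called 1, 0, 2, 0 and 0. None of the 3 classes of the pair was among the arms called by either tool. In order of time, the log2 fold change of counts specific to miR-103 was 2.17 (SE 2.16), 1.76 (SE 2.13), 3.17 (SE 2.24), −0.83 (SE 2.08) and 2.02 (SE 2.14). For counts specific to miR-107 the first 3 times gave 1.26 (SE 1.99), 0.14 (SE 1.96) and 1.38, the value at 6 h was below 0, and 24 h gave 1.41. For shared counts it lay between −0.54 at 1 h and 0.97 at 24 h, with SEs of 0.97 to 0.98. The adjusted p of every one of these was at least 0.9914. With the time course as a replicate block again no arm was called. The SEs of the 3 classes fell to between 0.80 and 0.85, and the log2 fold changes of miR-103 became 1.17, 0.82, 1.71, −1.40 and 1.07 in order of time. Those of miR-107 became 1.81, 0.09, 0.86, −1.38 and 1.83. In a self-test, counts were simulated without a spread between time courses, with log2 changes of 2 to 3 in either direction. There edgeR called 54 of 191 changed arms at 24 h, so many changes of these sizes would be missed with 2 libraries a group. The real counts also hold the spread between time courses, which the self-test left out.

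The batch effect between time courses that the study describes was also seen in counts specific to each member. In time course 1 counts specific to miR-103 numbered, in parts per 1000000 miRNA counts, 589.2 in NT-1, 621.8 in 0.5h-1, 787.3 in 1h-1, 331.8 in 3h-1, 166.2 in 6h-1 and 500.5 in 24h-1. In time course 2 they numbered 2325 in NT-2, 13028 in 0.5h-2, 10185 in 1h-2, 18938 in 3h-2, 1178 in 6h-2 and 8106 in 24h-2. As labelled, the lowest library of time course 2 lay above the highest of time course 1. NT-2 (2325) lay above 6h-2 (1178), so this fails if the untreated libraries are exchanged. How many of the other arms separate in this way was not counted, so it is not read as particular to miR-103.

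Counts specific to miR-107 followed the same split. On the same scale there were 205.1, 752.3, 251.9, 112.6, 47.8 and 596.0 in NT-1, 0.5h-1, 1h-1, 3h-1, 6h-1 and 24h-1. In NT-2, 0.5h-2, 1h-2, 3h-2, 6h-2 and 24h-2 there were 1797, 4541, 2347, 3902, 778.7 and 3577. Again every library of time course 2 was above every library of time course 1, the closest being 6h-2 and 0.5h-1. NT-2 (1797) again lay above 6h-2 (778.7), so this too depends on the labels of the untreated libraries.

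In the fit over all arms 152 of 470 arms differed between the time courses (32.3% of those tested), 94 of them higher in time course 2 and 58 lower (edgeR, adjusted p under 0.05, time point as covariate). Counts specific to miR-103 were 21.1-fold higher in time course 2, a log2 fold change of 4.40 (SE 0.54, adjusted p 0.000345, edgeR). Counts specific to miR-107 were 16.5-fold higher, a log2 fold change of 4.04 (SE 0.53, adjusted p 0.000512, edgeR). They ranked 5 and 10 of 470 arms from the highest log2 fold change down. These classes hold the tags that reach base 22, whereas arms outside the pair were ranked on tags of all lengths. Counts shared by both members differed by a log2 fold change of 0.40 (SE 0.48, adjusted p 0.5357, edgeR), rank 223. Tags of the same 2 miRNAs stood among the most changed arms where they reached base 22, and in the middle of the list where they did not.

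Scaling moved all of these by a common step. With scaling to the total count alone the median log2 fold change of all arms went from 0.29 to −0.30, the calls split into 51 higher and 113 lower, and shared counts turned to −0.19. Relative to the median arm the classes stayed where they were, at 4.11 and 4.08 for miR-103, 3.75 and 3.72 for miR-107 and 0.11 and 0.11 for shared counts under the 2 scalings. If shared counts were divided equally between the members, miR-103 kept an adjusted p of 0.02697 with a log2 fold change of 1.44 (edgeR), and miR-107 lost its call, at 0.85 and an adjusted p of 0.1665 (edgeR). With the pair summed into 1 arm, an alternative added after seeing the data, the log2 fold change was 1.18 (SE 0.44, adjusted p 0.05625, edgeR).

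**Figure D2:**
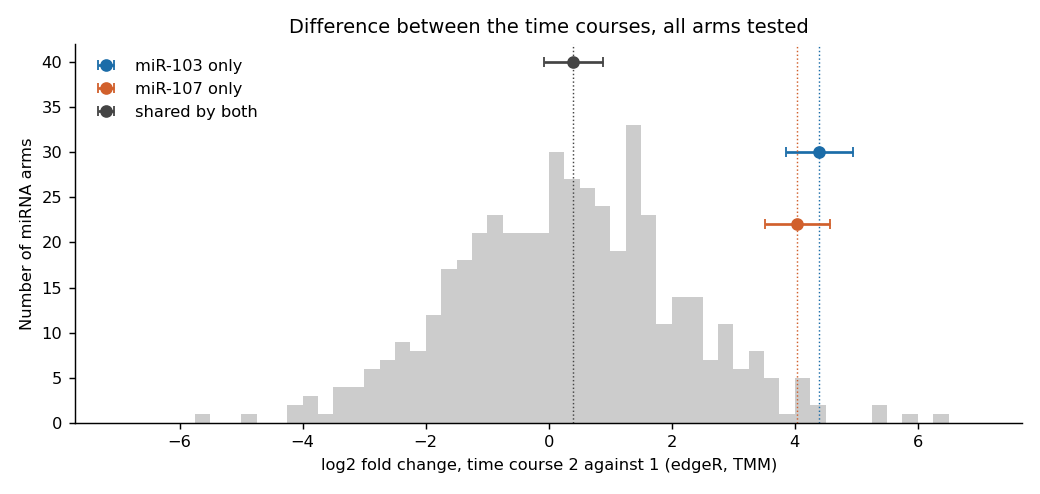
The histogram gives the log2 fold change of time course 2 against 1 for the 470 arms tested, and points with bars give the fold change and SE of the 3 classes of the pair (their height has no meaning). Counts specific to miR-103 (4.40) and miR-107 (4.04) lie in the upper tail, and shared counts (0.40) lie near the middle.

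As percent of miRNA counts, the summed level of the pair was 1.80% ± 0.830 in time course 1 and 2.67% ± 1.05 in time course 2 (SD, n = 6). It was higher in time course 2 at 5 of 6 time points, with 6 h the exception, and the mean difference of 0.863 points had p = 0.09375 (exact permutation test of the 64 flips within time points, two-sided). As percent of accepted reads the difference was 1.01 points with p = 0.0312, the smallest p the 64 flips can give (exact permutation test, two-sided).

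The share of the arm that could not be assigned also differed between the time courses. In time course 1 it was 85.5% in NT-1, 95.1% in 0.5h-1, 93.4% in 1h-1, 97.3% in 3h-1, 98.7% in 6h-1 and 95.9% in 24h-1. In time course 2 it was 83.7% in NT-2, 51.9% in 0.5h-2, 46.7% in 1h-2, 37.1% in 3h-2, 76.4% in 6h-2 and 61.3% in 24h-2. Every library of time course 2 was below every library of time course 1, though NT-1 and NT-2 were close. If NT-1 and NT-2 are exchanged, the ranges overlap.

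The mean share fell from 94.3% ± 4.69 to 59.5% ± 17.9 (SD, n = 6), lower at 6 of 6 time points. The difference of −34.8 points had p = 0.03125, the smallest this exact permutation test of 64 flips allows (two-sided), and 0.141 when adjusted over the 9 exact tests made. Leaving out tags of 18 and 19 nt changed it to −34.1 points with p = 0.0625 (exact permutation test), since NT-1 alone had many tags of that size. After ECS the share moved 10.6 points up in time course 1 and 29.0 points down in time course 2 against the untreated library, and the mean of −9.20 points had p = 0.5278 (exact permutation test, 36 placements, two-sided).

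A read table in the study gives the totals of the untreated libraries in the opposite order to the labels. By Pearson's r of log2 levels, NT-1 was closer to the 5 treated libraries of time course 1 (0.815 to 0.910) than to those of time course 2 (0.696 to 0.740). NT-2 did not separate them in this way, with 0.887 to 0.965 for the treated libraries of time course 2 and 0.808 to 0.926 for those of time course 1. The labels were kept. With NT-1 and NT-2 exchanged, an alternative added after seeing the data, 0 arms were called between the time courses by edgeR (79 at an unadjusted p under 0.05), with adjusted p = 0.1997 for miR-103 at a log2 fold change of 4.10 and 0.2054 for miR-107 at 3.42 (edgeR). With the untreated pair left out by dropping NT-1, 140 arms were called, and over the fits that each left out 1 library the log2 fold change stayed between 3.95 and 4.73 for miR-103 and between 3.62 and 4.29 for miR-107.

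Tag length shows where the assignable counts came from. With the counts of each time course pooled, time course 1 had 58.0% in the 21 nt tag and 35.2% in the 20 nt tag that begin at the main start. Most of these pooled counts came from 0.5h-1 (48814) and 24h-1 (59725). NT-1 departed from this, with 1420 of its 5830 counts at 19 nt and 14.0% at 22 nt or more. In 1h-1 and 6h-1 the order was reversed, with 11543 and 5227 counts in the 20 nt tag against 7771 and 1348 in the 21 nt tag. In time course 2 the 21 nt and 20 nt tags held 39.4% and 15.6%, and the full 23 nt sequence of miR-103 rose from 0.964% to 24.6%. The full miR-107 sequence held 0.226% in time course 1 and 5.81% in time course 2.

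The share of the pair's counts of at least 23 nt was 9.59% in NT-1, 0.213% in 0.5h-1, 4.21% in 1h-1, 1.82% in 3h-1, 0.243% in 6h-1 and 0.0452% in 24h-1. It was 3.40% in NT-2, 38.2% in 0.5h-2, 37.8% in 1h-2, 50.3% in 3h-2, 9.42% in 6h-2 and 24.9% in 24h-2. The untreated libraries ran against the other time points, NT-1 being the highest of time course 1 and NT-2 the lowest of time course 2.

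All other miRNAs together also had longer tags in time course 2, with 0.0271% to 0.477% of counts at 23 nt or more in time course 1 and 1.09% to 7.70% in time course 2. The pair's increase of 24.6 points ranked 14 of 211 arms, whose median was 0.737 points. At 22 nt or more its increase of 35.0 points ranked 63 of 211, against a median of 20.4 points. The shift to longer tags was thus common to many arms, and the pair's place in it depended on the length at which it was counted. RNA was cut from a gel by size, with an upper limit of about 24 nt in the labels and about 25 nt in the methods of the study, and the part of that step or of RNA quality in these lengths was not tested.

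**Figure D3:**
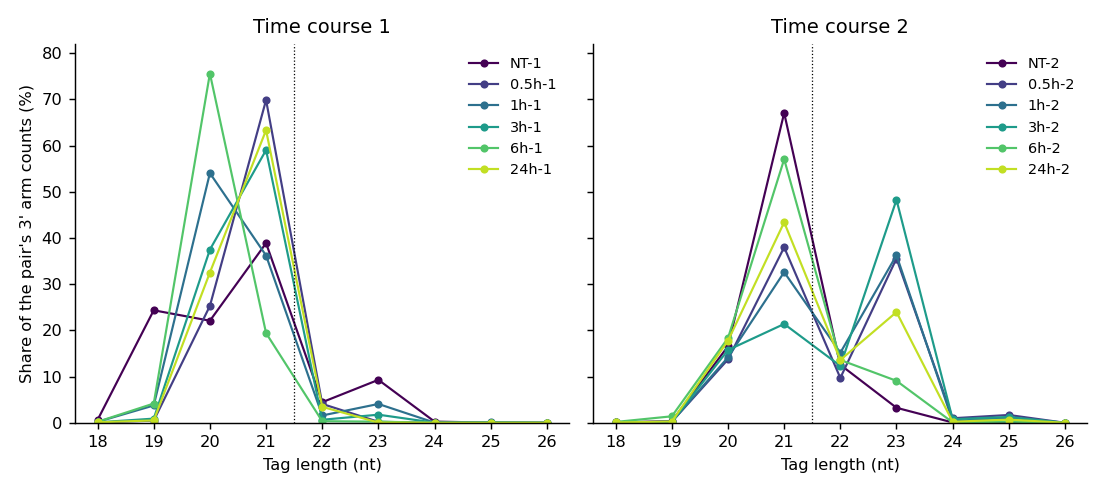
Lines give the share of the pair's 3′ arm counts at each tag length from 18 to 26 nt in every library, with time course 1 on the left and 2 on the right. The dotted line marks the step from tags that fit both members (21 nt or less) to tags that reach base 22, and a high second peak at 23 nt stands in 0.5h-2, 1h-2, 3h-2 and 24h-2.

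The summed levels of marker lists also differed between the time courses. The 3 vessel markers (miR-126, miR-143 and miR-145) summed to a mean of 9.55% of miRNA counts in time course 1 and 1.08% in time course 2, the 3 erythroid markers to 0.10% and 0.0205%, and the 3 white blood cell and microglia markers to 0.528% and 0.0686%. Only 1 of the white blood cell and microglia markers had counts in every library. The 5 neuronal markers stood at 19.9% and 10.1%, the 2 oligodendrocyte markers at 0.855% and 1.14%, the 3 muscle markers at 0.743% and 1.15%, and the 3 choroid plexus markers at 0.247% and 0.111%. The arms of a list did not move as one. Among vessel markers miR-143 3p had a log2 fold change of −2.61 and miR-126a 3p one of 1.28, and among erythroid markers miR-144 3p had −3.83, miR-451a 5p 1.58 and miR-486 3p 2.42. Their part in the results on the pair was not tested, and in tissue RNA fewer cells of a type and less RNA per cell cannot be told apart.

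The balance of the members was read from assignable counts. miR-103 took 74.2% of them in NT-1 (71.1 to 77.0), 45.3% in 0.5h-1 (43.3 to 47.2), 75.8% in 1h-1, 74.7% in 3h-1, 77.7% in 6h-1 (68.2 to 84.9) and 45.6% in 24h-1. It took 56.4% in NT-2, 74.2% in 0.5h-2, 81.3% in 1h-2, 82.9% in 3h-2, 60.2% in 6h-2 and 69.4% in 24h-2. miR-103 was the larger member in 10 of the 12 libraries, all but 0.5h-1 and 24h-1, which are also the pair of libraries most alike in all arms.

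The mean share of miR-103 was 65.5% ± 15.6 in time course 1 and 70.7% ± 10.9 in time course 2 (SD, n = 6). The difference of 5.20 points had p = 0.5625 (exact permutation test of 64 flips, two-sided, 4 of 6 time points in its direction). It ranged from 0.457 points without the 0.5 h libraries to 9.79 points without the untreated ones. After ECS the share moved −10.4 points in time course 1 and 17.2 points in time course 2, with p = 0.8056 for their mean of 3.40 (exact permutation test, 36 placements, two-sided). These tests do not show a change in balance, and the spread between libraries is wide.

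The balance differed with the end of the tag. Among 22 nt tags the miR-103 share ran from 20.8% in 6h-1, where it rests on 24 counts, to 70.9% in 3h-2. Among 23 nt tags it ran from 59.8% in NT-2 to 94.1% in 6h-1, and it was above its 22 nt value in 12 of 12 libraries. In 0.5h-1 and 24h-1 the 22 nt tags gave 34.5% and 35.8% and the 23 nt tags 74.0% (64.9 to 81.5) and 74.1% (55.3 to 86.8). Those libraries had 77 and 20 miR-103 tags of 23 nt against 682 and 732 of 22 nt, so their overall share was nearly that of the 22 nt tags.

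**Figure D4:**
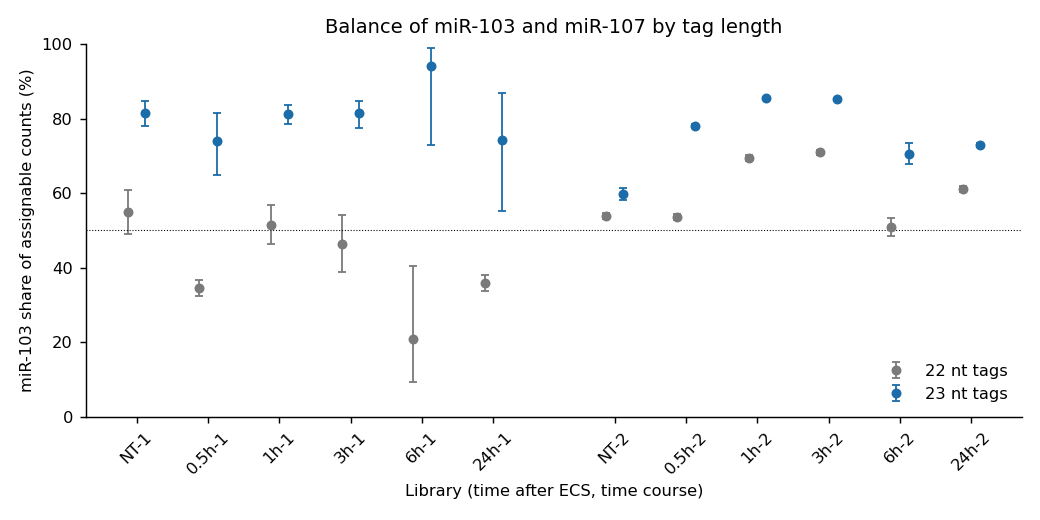
Points give the miR-103 share of counts that fit 1 member, for 22 nt tags (grey) and 23 nt tags (blue), with 95% Wilson intervals, in each library. The dotted line marks equal shares of miR-103 and miR-107, and the blue point lies above the grey one in all 12 libraries.

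Put another way, assignable miR-107 was shorter than assignable miR-103. The share of counts at 23 nt or more was 52.3% ± 30.7 for miR-103 and 36.3% ± 24.3 for miR-107 (SD, n = 12). It ran for miR-103 from 1.80% in 24h-1 to 85.0% in 0.5h-2, and for miR-107 from 0.529% in 24h-1 to 66.6% in 3h-2. miR-107 was lower in 12 of 12 libraries, by 16.0 points on average (difference −16.0). This gave p = 0.0004883, the smallest that exchanging the members within the 12 libraries allows (exact permutation test, two-sided), and 0.00439 when adjusted over the 9 exact tests. When each tag was matched by its longest exact start instead, which lets in tags with added bases, the difference was −8.55 points with p = 0.0532 (exact permutation test).

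Tags that fit neither member at base 22 bear on that reading. Among 22 nt tags with the common first 21 bases, 50241 counts had the G of miR-103, 32595 the C of miR-107, 11467 a T and 8123 an A. The A and T tags, which match neither hairpin, were 19.1% of these 22 nt counts, 25.1% in time course 1 and 18.7% in time course 2. Among 23 nt tags that ended in the A of both members, A or T at base 22 made up 1.25%, with 4.55% in time course 1 and 1.22% in time course 2. It made up 16.5% in 0.5h-1 and 59.3% in 24h-1, the libraries with fewest such tags beside 6h-1. An added G or C after base 21 would look like a member, and how many 22 nt counts arose so was not tested. Of the G and C tags, miR-103 held 60.7% at 22 nt and 80.9% at 23 nt over all libraries. With counts pooled by time course it held 37.3% and 62.1% at 22 nt, and 81.0% and 80.9% at 23 nt. Most of the 22 nt counts of time course 1 came from 0.5h-1 and 24h-1, at 34.1% and 35.4%. NT-1, 1h-1 and 3h-1 stood at 55.0%, 51.3% and 46.2%, and 6h-1 at 20.8% on few counts.

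Added bases were seen after base 22 and base 23 too. Of all counts matched by a start of at least 18 nt, 88.8% matched over the full tag, and 63.5% of the counts with 1 base more had a T and 24.9% an A. These forms are shown with the added base in capitals.

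miR-103, 22 nt and T: agcagcattgtacagggctatgT
miR-107, 22 nt and T: agcagcattgtacagggctatcT
miR-103, 23 nt and T: agcagcattgtacagggctatgaT

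The first had 7714 counts, 3.60% of the miR-103 tags that reached base 22 from the main start with no or 1 base after it. The second had 5373, 7.14% of the like tags of miR-107. A added after base 22 cannot be told from the genomic A at base 23.

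Only longer tags could tell the 2 miR-103 loci apart, since only they run into bases where Mir103-1 and Mir103-2 differ. The bases past the mature end are in capitals.

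fits Mir103-2 only: agcagcattgtacagggctatgaAA
fits Mir103-1 only: agcagcattgtacagggctatgaAG
fits Mir107 only: agcagcattgtacagggctatcaAA

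The Mir103-2 form had 6278 counts, 2.87% of miR-103, and the Mir103-1 form had 21. The corresponding miR-107 form had 42 counts, 0.0601% of miR-107. As a share of itself and the full 23 nt sequence, the miR-103 tag with AA stood at 2.78% to 5.67% in 1h-1, 3h-1 and all libraries of time course 2, at 0.45% in NT-1 (2 counts) and at 0 in 0.5h-1, 6h-1 and 24h-1, and the miR-107 tag at 0.161% or less in each of the 12 libraries. Both A bases are in the Mir103-2 hairpin, and AA added to a product of either locus would give the same tag. Over the whole arm, 6394 counts fitted only Mir103-2 and 46 only Mir103-1. The remaining miR-103 counts fit both loci, so the locus could be read for few miR-103 counts at most.

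The 5′ end was steady. Counts that began at the mature start made up 99.5% of the arm, and 96.7% in NT-1 to 99.7% in 3h-1 by library. The main shifted form began 2 bases later, with 2888 counts (0.363%), which moves the seed, in capitals here.

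start of the mature sequence: aGCAGCATtgtacagggctat
start 2 bases later: cAGCATTGtacagggctatga

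The shifted form shown had 1982 counts and, unlike the bulk of the arm, ran to the mature 3′ end. In 0.5h-1 and 24h-1 it had 297 and 333 counts, more than the 75 and 17 counts of the full 23 nt miR-103 tag. In 3h-2 it had 304 against 61883. Between the time courses the share at the main start differed by 0.742 points (98.7% ± 1.04 and 99.5% ± 0.178, SD, n = 6) with p = 0.0625, and after ECS by 1.24 points with p = 0.08333 (exact permutation tests, two-sided). Both rest on NT-1: without it they were 0.339 and 0.0286 points, and the difference after ECS was 2.45 points in time course 1 and 0.0286 in time course 2. Among the 71 arms of at least 0.1% of miRNA counts the pair ranked 30 by this share, and their median was 99.2%.

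The 5′ arm was not detected. Its RefSeq sequences differ between the loci and are shown because they would have told the loci apart, with the seed in capitals.

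mmu-miR-103-1-5p: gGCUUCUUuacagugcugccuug
mmu-miR-103-2-5p: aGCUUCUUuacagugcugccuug
mmu-miR-107-5p: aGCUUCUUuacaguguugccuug

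miR-103-1-5p and miR-103-2-5p differ by G1A, and miR-107-5p differs from miR-103-2-5p by C16U, each position counted from the 5′ end. Exact tags numbered 0 in the 12 libraries together, which allows up to 3 counts or 9.99e-06% of all miRNA counts. Matching by the first 18 nt or more found 6 counts, 5 of Mir107 in NT-1 and 1 of Mir103-2 in 0.5h-2. With 795584 counts on the other side, the hairpins were read from 1 arm only at this depth.

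The pair belongs to the group of miR-15 and miR-107, miRNAs that carry AGCAGC near the 5′ end. In the pair this run starts at base 1 and in the 7 other members at base 2, which shifts the seed by 1 base. The run is in capitals here for the pair and for 3 of the others.

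mmu-miR-107-3p: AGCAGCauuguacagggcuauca
mmu-miR-16-5p: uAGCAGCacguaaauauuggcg
mmu-miR-322-5p: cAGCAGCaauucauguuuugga
mmu-miR-503-5p: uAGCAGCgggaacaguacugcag

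The seed is GCAGCAU in the pair, AGCAGCA in 6 of the others and AGCAGCG in miR-503. The 7 other members, miR-15a, miR-15b, miR-16, miR-195a, miR-322, miR-497 and miR-503, known mainly for restraining the cell cycle, had 28120 counts in all. The pair had 28.3 counts for each of theirs and exceeded their sum in 12 of 12 libraries, by 2.74 to 72.8 times. After ECS 0 of the 7 passed the test at any time (edgeR), with median log2 fold changes between −0.65 at 1 h and 0.76 at 6 h.

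Between the time courses 3 of the 7 differed, 2 higher in time course 2 and 1 lower, where 32.3% of all arms differed. miR-16 rose by 2.41 (SE 0.63, adjusted p 0.01192, edgeR) and miR-503 by 2.32 (SE 0.64, adjusted p 0.01585, edgeR) on the log2 scale. miR-322 was lower, at −1.63 (SE 0.57, adjusted p 0.04200, edgeR). With scaling to the total count alone, miR-503 was at 1.69 with an adjusted p of 0.05741 and miR-15b passed, at −2.46 with an adjusted p of 0.04042 (edgeR). The median of the 7 was 1.48, below the values of both member classes and above that of shared counts.

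Within time courses, the arms most like each class were found by Pearson's r of log2 percent over the 12 libraries after taking out the mean of each time course, among 213 arms. For counts specific to miR-103 they were miR-320 3p (0.807), miR-221 3p (0.755), let-7b 5p (0.721), miR-125a 5p (0.716) and miR-433 3p (0.714). For counts specific to miR-107 they were let-7c 5p (0.910), miR-672 5p (0.851), miR-409 5p (0.829), miR-1981 5p (0.806) and miR-328 3p (0.801). The members' own counts had r = 0.746 with each other. Shared counts had r = 0.191 with miR-103 and 0.480 with miR-107. The 10 arms named were picked for their high r, so they are no reference for these values. All these values share the libraries and their depth and tag lengths, and are given as a description.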

How the data were processed

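Gel-selected small RNA (from about 18 nt to 24 nt per the labels, to 25 nt per the methods of the study) from 12 hippocampi was cloned and sequenced by the authors (Illumina), who removed reads without insert or 3′ adapter and mapped the rest to NCBI mouse assembly 37. The deposited files hold, for each sample, tags and their counts, not normalized. Groups and replicate numbers came from the labels, and the study states that the suffix marks the time course. Libraries of the same time course deviated together (15 pairs of time points, mean r 0.584, 0.378 to 0.821, 213 arms), so the numbers pair the libraries.

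Tags of at least 18 nt were matched exactly to GENCODE M21 hairpins (release 21, GRCm38), and names were counted by arm. Tags that fit several names were divided equally, except those of the pair. Mature sequences came from RefSeq. Arms with at least 10 counts in 2 libraries (470) entered edgeR 4.0.16 (R 4.3.3, TMM, quasi-likelihood test, Benjamini-Hochberg), with all 12 libraries in each fit. Single values had exact permutation tests (python 3.11.15, numpy 2.4.6). The code was tested on simulated data and called 174 of 185 changed and 5 of 261 unchanged arms between 6 and 6 libraries. Alternatives were DESeq2 1.42.0, other scalings, filters and matching, the replicate block and leaving out libraries.

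The members, lists and tests were chosen with earlier results of these data known. Named arms were the pair, the miR-15/107 group, the 5 arms most like each member and the 3 with most counts that fit several names, besides those named in sentences on the processing.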

Additional observations from a re-analysis of the deposited data

Results flagged for a closer look

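The share of 3′ arm counts at the main start was 96.7% in NT-1, apart from the other 5 libraries of time course 1, which had 98.8% to 99.7% (gap over range above the critical value of Dixon's test). It was 1 of 16 groups tested, and chance sets apart about 1 in 20. Of the NT-1 counts off the main start, 188 began 2 bases later.

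The share of counts that fit both members moved in opposite directions after ECS. It was above the untreated library in all 5 treated libraries of time course 1, by 10.6 points on average, and below it in all 5 of time course 2, by −29.0 points. The difference between the time courses in this response was not tested, and each rests on 1 untreated library.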

How the results depend on the processing

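Most values kept their direction and their side of the threshold. Exceptions between time courses were the level as percent of accepted reads (1.01 points), the miR-103 share from tags of 23 nt or more only (−5.11 points), the shared share without 18 and 19 nt tags (−34.1 points) and with the untreated libraries exchanged (−34.2), and the main-start share with that exchange (−0.177). The main-start share after ECS from tags of 21 nt or more was −0.0739 points, and the length difference of the members under matching by start was −8.55 points. DESeq2 called 1 arm at 0.5 h (miR-485 5p) and 2 at 3 h (miR-1934 3p and miR-344f 3p), and edgeR without a filter called 1 at 3 h (miR-1934 3p), names chosen after their values were seen. Between time courses the exchange left 0 arms called, DESeq2 gave 222, and leaving out 1 library gave 95 (without 1h-1) to 160. Leaving out 1 library moved the shared share between −41.4 and −29.7 points, where 5 pairs cannot give a p under 0.0625 in the exact permutation test; the shared share after ECS between −29 and 10.6; and the miR-103 share after ECS between −10.4 and 17.2, both turning without NT-2. The same fits moved the level between time courses from 0.637 to 1.19 points and after ECS from 0.168 (without NT-1) to 1.51 (without NT-2).

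Log2 fold changes of the members after ECS, none of them called, turned in some fits. Leaving out 1 library gave −1.51 to 4.16, −1.28 to 3.74, −2.07 to 5.16, −3.53 to 1.16 and −1.67 to 4.0 for miR-103, in order of time. It gave −0.76 to 4.29, −2.42 to 3.17, −3.12 to 4.41, −4.82 to 2.02 and −0.91 to 4.44 for miR-107. For shared counts it gave −0.18 to 2.76, −1.35 to 1.59, −0.35 to 2.62 and −1.24 to 1.70 at 0.5, 1, 3 and 6 h, and −0.04 to 0.57 between time courses, where total scaling gave −0.19 and the exchange −0.43. Equal division of shared tags gave −0.35 for miR-107 at 1 h. The time course as a replicate block, which the pairing of libraries allows, changed no call (0 arms at each time, 28, 12, 25, 35 and 23 at an unadjusted p under 0.05). With the block and the exchange, miR-103 was at −1.05, −1.41, −0.45 and −1.16 and miR-107 at −0.97, −2.56, −1.66 and −0.92 at 0.5, 1, 3 and 24 h. The causes of these shifts were not tested. Depth limited the balance of the members most in 6h-1, with 94 assignable counts.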
